A study of Danio rerio with 2 samples.

Results

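Cholesterol is built in the liver from acetyl-CoA along the mevalonate pathway to squalene, which is then closed into lanosterol and trimmed to cholesterol. When sterol is scarce in the membrane of the endoplasmic reticulum, the escort protein SCAP carries the transcription factors SREBP-1 and SREBP-2 to the Golgi, where they are cut and released to switch on synthesis and uptake genes. INSIG proteins hold SCAP back when sterol is plentiful. Liver cells also take up lipoprotein cholesterol, store it as esters and export it to plasma and bile. The genes described here are 42 zebrafish symbols of these steps, chosen as a pathway list with earlier results of these data known. A gene ID was taken where its symbol was on the list, case ignored, or on it without a final a or b. This gave 42 IDs of the 31953 in the count tables, from 40 of the 42 symbols. Symbols with no ID under this rule were cyp51 and insig2.

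Livers were taken from zebrafish larvae 5 days after fertilization and pooled into 1 library of man1a2 morphants and 1 library of controls. Morphants were injected as zygotes with a morpholino, a synthetic antisense oligonucleotide, against man1a2, a Golgi class I alpha-mannosidase that trims N-linked glycans. Controls received no injection, so any effect of injection itself cannot be told apart from that of the knockdown. Each pool held RNA from 3 batches of 100 livers. The transgenic lines used for the study are listed without saying which gave these livers. The study used 2 man1a2 morpholinos of 25 bases, at 1.5 or 4.5 ng for the one against the start codon and 5 or 7.5 ng for the one against a splice site. Which of them, and what dose, went into the sequenced pool is not stated. They are shown because they are the only reagent by which the libraries differ per the labels, and the capitals mark the single stretch of the start codon morpholino that is antisense to ATG.
man1a2-ATG: ccggcgtggtCATattttgatgatc
man1a2-splicing: aagaatgtaaactcacctctctgat

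The morphant library held 19783886 counts and the control library 19658335. The read count of man1a2 itself (MAN1A2, ENSDARG00000041728) was 195 in morphants and 193 in controls, a log2 ratio of -0.09 with a 95% interval of -0.39 to 0.20. Since morpholinos block translation or splicing, the gene count is no measure of the knockdown. Hepatocyte markers were abundant in both libraries, with 9 IDs, fabp10a (219794 morphant and 170957 control reads) and tfa (702507 and 799736) among them, summing to 1963399 morphant and 2028731 control reads. Markers of exocrine pancreas, with 5 of 8 symbols matched, were higher in morphants for 6 of 6 IDs, of which 1 had a single read, and summed to 4335 reads in morphants and 403 in controls, and those of epidermis were higher for 5 of 5 IDs, though TP63 (46 reads in morphants and 27 in controls) was not past the read test explained below, and summed to 1488 reads in morphants and 212 in controls. Among them the trypsin gene prss1 had 1730 reads in morphants and 184 in controls, and the keratin gene krt4 had 814 and 155. Intestinal markers summed to 46031 morphant and 66130 control reads, of which apoa4b.1 gave 43099 and 63276. FABP2 (2550 reads in morphants and 2415 in controls) and CDH17 (117 and 98) were not past the read test. The ANPEP ID ENSDARG00000103878 was lower (98 and 144), while VIL1 was at 0 in both libraries. Of the 9 intestinal IDs, 3 had a ratio above 0 and 2 were at 0 in both libraries. Muscle and neural markers summed to no more than 23 reads in either library, and the neuronal marker ELAVL3 was at 0 in both. Leukocyte and erythroid markers were lower in morphants, at 88 and 266 reads, against 219 and 588 in controls. Of these, CORO1A (37 reads in morphants and 57 in controls) and gata1a (3 and 9) were not past the read test. In pooled tissue, fewer cells of a type and less RNA per cell cannot be told apart.

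Normalized counts are reads divided by the size factor of the library (1.04 for morphants and 0.963 for controls). Each ratio sets morphants over controls after adding 0.5 to both normalized counts. Intervals are 95% Clopper-Pearson intervals and cover counting error only. There was 1 library per group, so no difference could be set against the spread between pools. A member was called at a fold of 2 or more, among genes whose normalized counts averaged 10 or more. As a second description, the read test asked whether reads were split between the 2 libraries as the size factors predict, by an exact binomial test adjusted over all genes with at least 10 reads. It took the study's thresholds of an adjusted p under 0.05 and a fold of at least 1.2, and it compares the libraries and not the conditions.

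Genes of cholesterol synthesis were higher in morphant livers along nearly the whole pathway, by a median of 2.07-fold. Of the 42 member IDs, 40 had a mean of at least 10, and 12 of these were 2-fold or more higher in morphants, where the share of all genes was 3.30%. None was 2-fold or more lower, where the share of all genes was 4.14%. Synthesis genes made up 11 of the 12, out of 21 with enough reads, and the last was insig1. The median log2 ratio was 1.05 over these 21 synthesis genes and 0.24 over the 19 other members, against 0.01 over all 14241 genes with a mean of at least 10. Past the read test, 26 of 40 members were higher and 5 were lower, where the shares of all 15732 genes tested were 12.5% and 12.6%. An ID under SQLE (ENSDARG00000063319) had 0 reads in both libraries and one under NPC2 (ENSDARG00000096979) had 2 in each, and neither entered these counts.

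**Figure D1:**
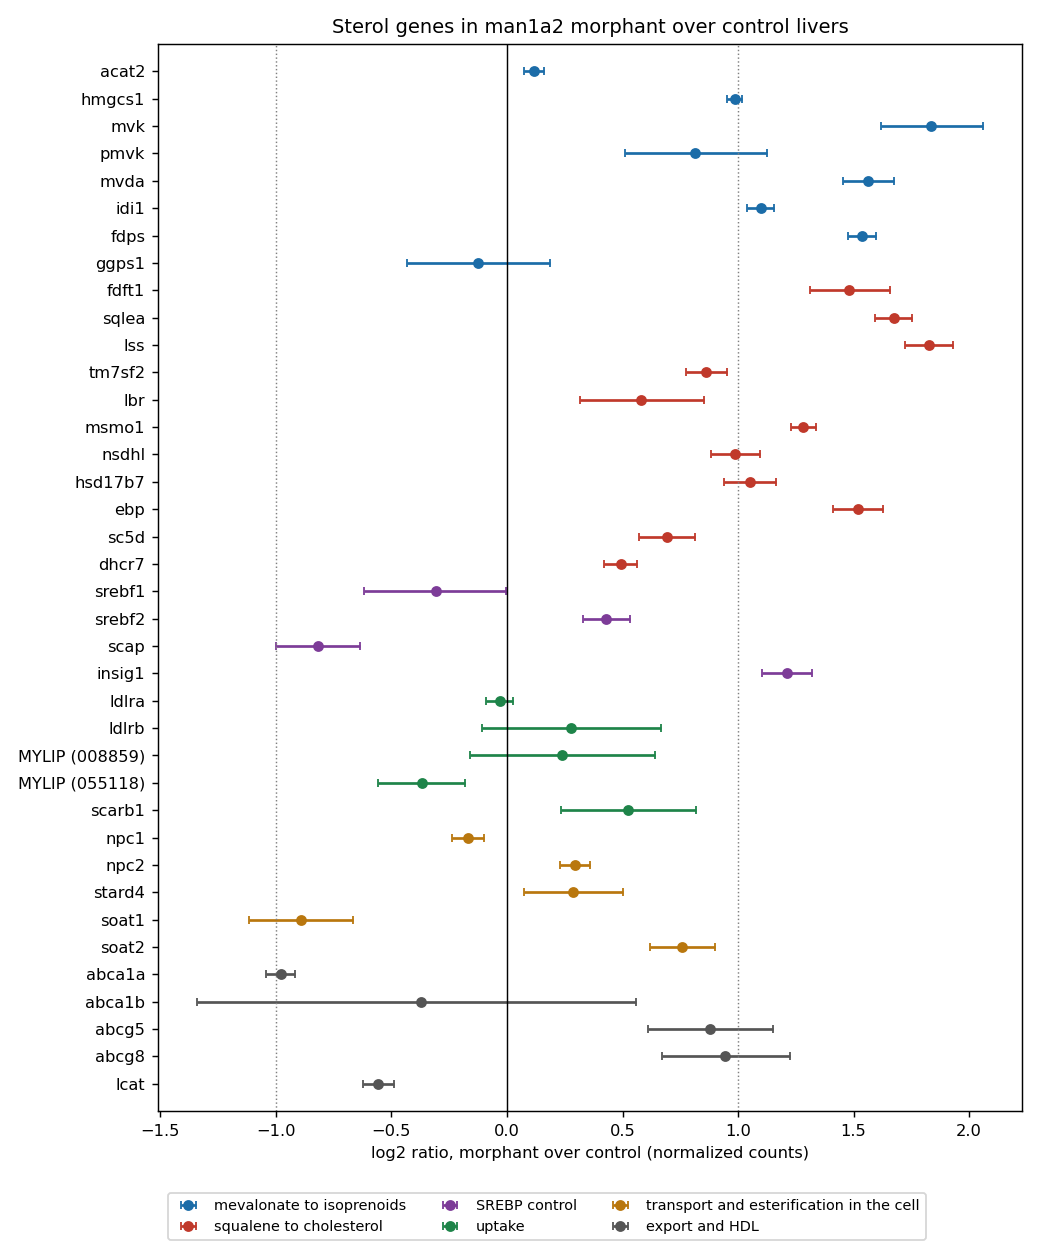
Log2 ratio of 38 measured sterol gene IDs (x axis), listed in the order of their roles (y axis, colours). Points are ratios of the morphant over the control library, bars are 95% counting intervals, dotted lines mark a fold of 2, and all synthesis genes shown but ggps1 lie above 0.

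Reads of the 22 synthesis IDs summed to 102629 in morphants and 46463 in controls. That was 0.519% of morphant counts (95% interval 0.516% to 0.522%) and 0.236% of control counts (0.234% to 0.239%). The other 20 member IDs summed to 27516 reads in morphants and 27429 in controls, or 0.139% and 0.140% of counts. Of the 56253 more member reads in morphants, 56166 were thus in synthesis genes. The pancreatic and epidermal marker lists had 3932 and 1276 more reads in morphants, and their part in the sterol result was not tested.

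**Figure D2:**
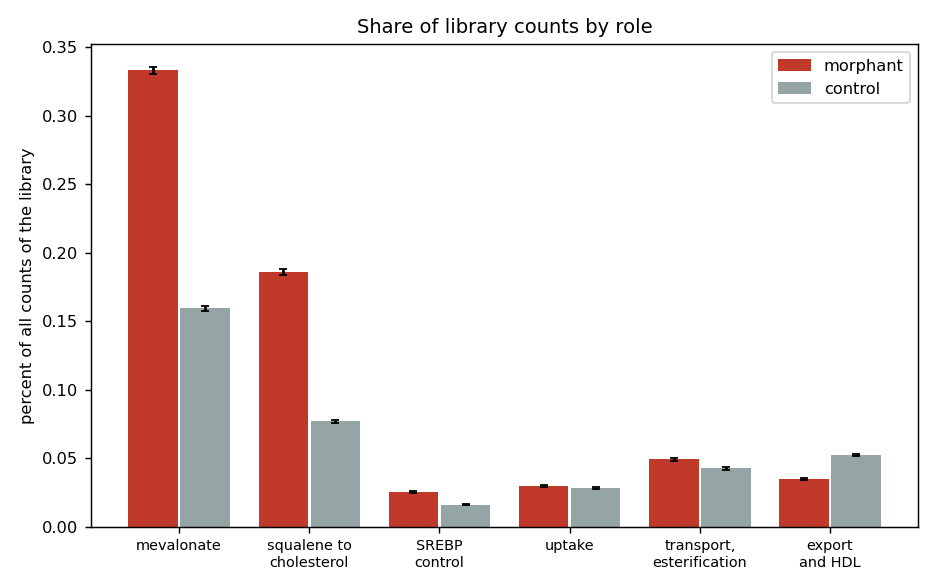
Percent of all counts of a library (y axis) taken by the members of each role (x axis), in the morphant library (left bar of each pair) and the control library (right bar), with 95% Clopper-Pearson intervals. Mevalonate genes took 0.333% of morphant and 0.159% of control counts, while export genes took 0.0349% and 0.0523%.

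The mevalonate steps run to farnesyl diphosphate, and ggps1 of the geranylgeranyl branch was listed with them. Of these 10 IDs, 7 were past the read test, all higher in morphants, where the share of all genes was 12.5%. The entry enzyme acat2 (ACAT2, ENSDARG00000007127), which joins acetyl-CoA units, had 9510 reads in morphants and 8135 in controls, a log2 ratio of 0.12 (interval 0.07 to 0.16) that was under the minimum fold. The next enzyme, hmgcs1 (HMGCS1, ENSDARG00000103025), which makes HMG-CoA, had 24155 reads in morphants and 11318 in controls, a log2 ratio of 0.99 (interval 0.95 to 1.02). The first 2 steps thus differed in their ratio. Within each library, hmgcs1 had 2.54 reads for each acat2 read in morphants and 1.39 in controls, and this ratio was 1.83 times as high in morphants (interval 1.76 to 1.89), whatever the scaling.

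The kinase mvk (MVK, ENSDARG00000004130), which phosphorylates mevalonate, had the highest ratio of all members. It had 832 reads in morphants and 216 in controls, a log2 ratio of 1.84 (interval 1.62 to 2.06), and stood at rank 118 of 14241 genes. The kinase of the next step, pmvk (PMVK, ENSDARG00000070798), had 256 reads in morphants and 135 in controls (log2 ratio 0.81, interval 0.51 to 1.13). The decarboxylase mvda (MVD, ENSDARG00000099336), which makes isopentenyl diphosphate, had 2796 reads in morphants and 878 in controls (1.56, interval 1.45 to 1.67). All 3 steps between mevalonate and the isoprenoid unit were thus higher in morphants, by 1.76-fold to 3.57-fold.

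The isomerase idi1 (IDI1, ENSDARG00000019976) had 7713 reads in morphants and 3343 in controls, a log2 ratio of 1.098 (interval 1.04 to 1.16). Farnesyl diphosphate synthase, fdps (FDPS, ENSDARG00000040890), had 9019 reads in morphants and 2889 in controls (1.53, interval 1.47 to 1.60). Farnesyl diphosphate is the branch point from which sterols, dolichol, ubiquinone and prenylated proteins are made. At the geranylgeranyl branch, ggps1 (GGPS1, ENSDARG00000023627) had 175 reads in morphants and 177 in controls, a log2 ratio of -0.12 (interval -0.43 to 0.19). It was the sole synthesis member with a ratio under 0, though its interval included 0, and it serves a non-sterol branch.

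From squalene onward, all 11 measured IDs were past the read test and higher in morphants, with log2 ratios from 0.49 to 1.83. The share of all genes past that test and higher was 12.5%. Squalene synthase, fdft1 (FDFT1, ENSDARG00000101062), had 1084 reads in morphants and 360 in controls (1.48, interval 1.31 to 1.66). Squalene epoxidase, sqlea (SQLE, ENSDARG00000079946), which introduces the oxygen of the sterol, had 5604 reads in morphants and 1630 in controls (1.67, interval 1.59 to 1.75). Lanosterol synthase, lss (LSS, ENSDARG00000061274), which closes the ring system, had 3695 reads in morphants and 967 in controls (1.83, interval 1.72 to 1.93). These 3 enzymes take farnesyl diphosphate to the first sterol, and their ratios ran from 2.79-fold to 3.55-fold.

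The enzymes that trim lanosterol to cholesterol were also higher, though most by less. The methyl oxidase msmo1 (MSMO1, ENSDARG00000055876) had 10141 reads in morphants and 3872 in controls (log2 ratio 1.28, interval 1.23 to 1.34). Its partners in removing the methyl groups at the same carbon were nsdhl (NSDHL, ENSDARG00000099315), with 2308 reads in morphants and 1080 in controls (0.99, interval 0.88 to 1.09), and hsd17b7 (HSD17B7, ENSDARG00000088140), with 2123 and 951 (1.05, interval 0.94 to 1.16). The ratios of these 3 enzymes lay between 0.99 and 1.28. The isomerase ebp (EBP, ENSDARG00000046098) stood higher, with 2792 reads in morphants and 905 in controls (1.52, interval 1.41 to 1.63).

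Lower ratios were found for the reductases and the desaturase of the late pathway. The sterol reductase tm7sf2 (TM7SF2, ENSDARG00000032816) had 3027 reads in morphants and 1546 in controls (log2 ratio 0.86, interval 0.77 to 0.95). The other enzyme of that step, lbr (LBR, ENSDARG00000014013), which is also the lamin B receptor of the nuclear envelope, had 305 reads in morphants and 189 in controls (0.58, interval 0.32 to 0.85). The last steps were sc5d (SC5D, ENSDARG00000044642), with 1506 reads in morphants and 866 in controls (0.69, interval 0.57 to 0.81), and dhcr7 (DHCR7, ENSDARG00000103226), with 4181 and 2760 (0.49, interval 0.42 to 0.56). The intervals of these 4 enzymes lay below those of sqlea and lss. The lanosterol demethylase, which in human is CYP51A1, had an ID under that name (ENSDARG00000042641) that the symbol rule did not take. It was looked up after the other values were seen and had 11143 reads in morphants and 3476 in controls (1.57, interval 1.52 to 1.63).

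**Figure D3:**
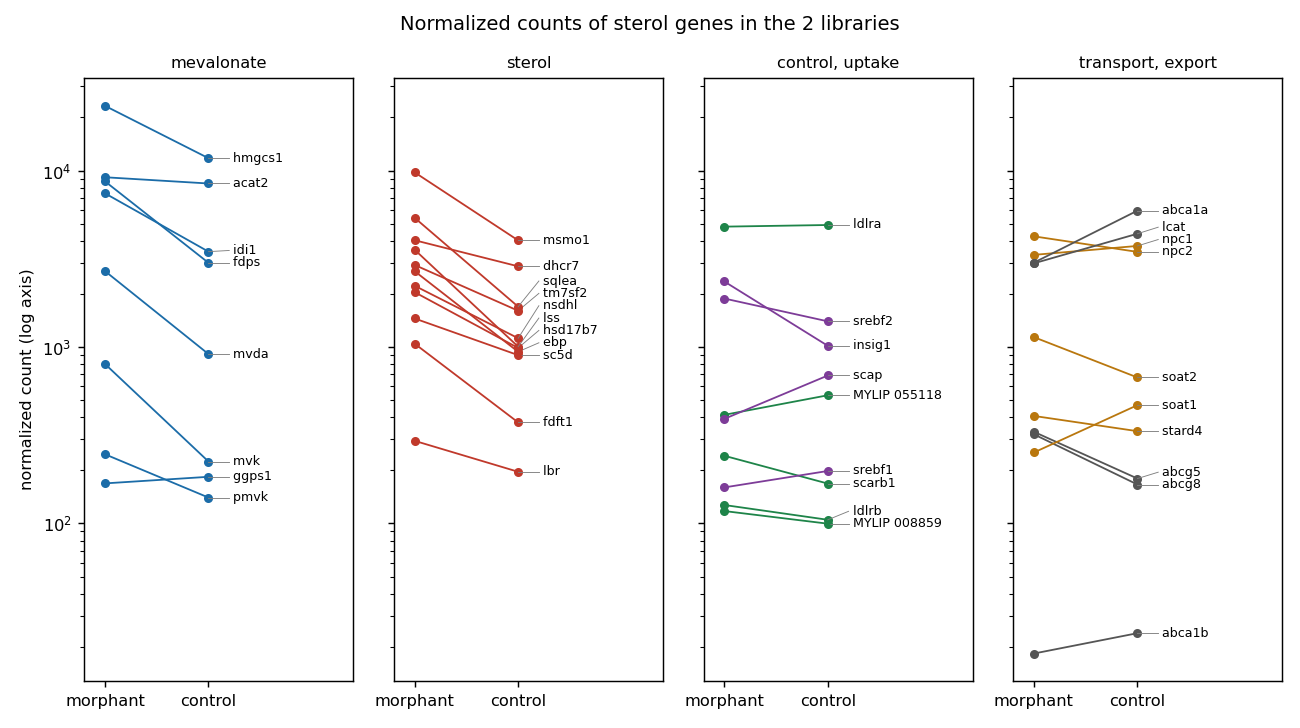
Normalized count of the same 38 members (y axis, log scale) in the morphant library (left point) and the control library (right point), in 4 panels by role. Lines joining the points of mevalonate and sterol genes fall from the morphant to the control point except for ggps1, while lines of the other roles run in both directions, and heights of different genes are not comparable because transcripts differ in length.

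The genes that control the pathway did not share 1 direction. The transcription factor gene srebf2 (ENSDARG00000063438), whose product SREBP-2 drives cholesterol synthesis, had 1954 reads in morphants and 1346 in controls (log2 ratio 0.43, interval 0.33 to 0.53). Its relative srebf1 (SREBF1, ENSDARG00000067607), known mainly for fatty acid synthesis, had 166 reads in morphants and 191 in controls (-0.31, interval -0.62 to -0.0024) and was not past the read test. The ratio of srebf2 to srebf1 reads was 11.8 in morphants and 7.05 in controls, 1.67 times as high in morphants (interval 1.33 to 2.09).

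The escort gene and its retention partner lay on opposite sides. The gene scap (SCAP, ENSDARG00000018096) had 406 reads in morphants and 664 in controls, a log2 ratio of -0.82 (interval -0.999 to -0.64). The gene insig1 (ENSDARG00000010658), which is itself a target of SREBP in mammals, had 2441 reads in morphants and 978 in controls (1.21, interval 1.104 to 1.32). There were 6.01 insig1 reads for each scap read in morphants and 1.47 in controls, a change of 4.08 times (interval 3.53 to 4.73), the widest of the 10 pairs compared in this way. These pairs were chosen with the values known, and their intervals are not adjusted for their number.

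**Figure D4:**
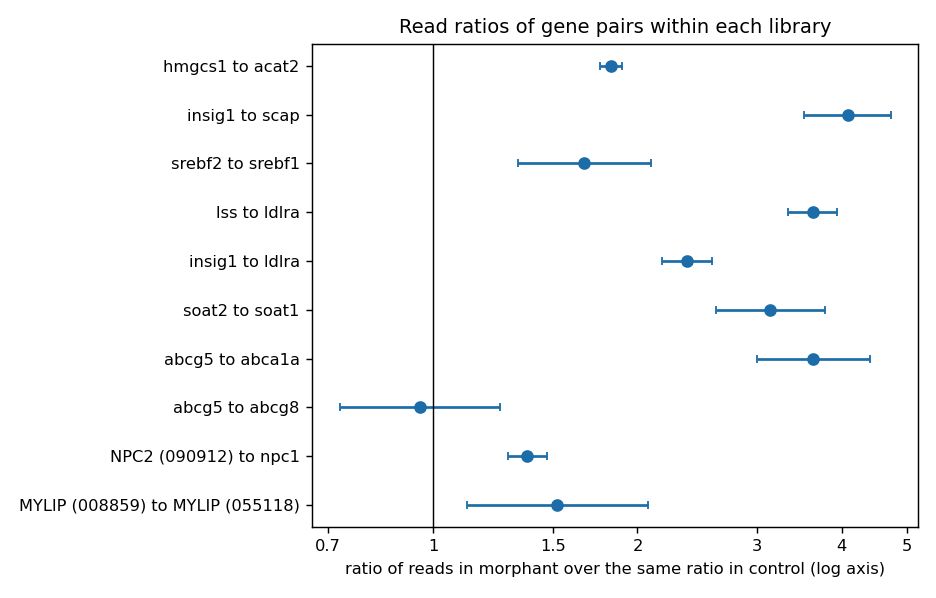
Ratio of the reads of 2 genes in the morphant library divided by the same ratio in the control library (x axis, log scale) for 10 pairs (y axis), with exact 95% intervals that cover counting error and do not depend on scaling between libraries. The interval of abcg5 to abcg8 includes 1, and the other 9 lie above it.

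Among the LDL receptor genes, ldlra had a lower ratio than every measured synthesis member but ggps1. The LDL receptor gene ldlra (ENSDARG00000029476), which in mammals is a target of SREBP like the synthesis genes, had 4991 reads in morphants and 4733 in controls, a log2 ratio of -0.03 (interval -0.09 to 0.03) that was 0.07 when libraries were scaled by total counts. Its paralog ldlrb (ENSDARG00000026759) had 132 reads in morphants and 101 in controls (0.28, interval -0.11 to 0.67). Neither receptor gene was past the read test. Set against ldlra, lss had 3.62 times as many reads in morphants as in controls (interval 3.34 to 3.93), and insig1 had 2.37 times as many (interval 2.17 to 2.58).

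The ubiquitin ligase that marks the LDL receptor for destruction is named MYLIP, and the IDs of mylipa and mylipb both carried that symbol. ENSDARG00000055118 had 428 reads in morphants and 513 in controls, a log2 ratio of -0.37 (interval -0.56 to -0.18). ENSDARG00000008859 had 122 reads in morphants and 96 in controls (0.24, interval -0.16 to 0.64) and was not past the read test. How the authors' counting split reads shared by paralogs is not given in the sources used here. The HDL receptor gene scarb1 (SCARB1, ENSDARG00000101557), which takes up cholesteryl ester, had 251 reads in morphants and 162 in controls (0.52, interval 0.23 to 0.82). Of the 5 uptake IDs, 1 was higher and 1 lower past the read test, near the shares of all genes of 12.5% and 12.6%.

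Within the cell, lysosomal export and esterification were examined. The lysosomal pair npc1 (NPC1, ENSDARG00000017180) and npc2 (NPC2, ENSDARG00000090912), which hand cholesterol out of lysosomes together, had 3453 and 4398 reads in morphants and 3602 and 3332 in controls. The log2 ratio was -0.17 for npc1 (interval -0.24 to -0.10), under the minimum fold, and 0.29 for npc2 (0.23 to 0.36). The carrier stard4 (STARD4, ENSDARG00000102477), which moves sterol between membranes, had 422 reads in morphants and 321 in controls, a log2 ratio of 0.29 (interval 0.07 to 0.50) at the edge of the read test.

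The esterifying enzymes moved apart. In mammals SOAT2 serves hepatocytes and enterocytes and SOAT1 is widely expressed, as in macrophages. The gene soat2 (SOAT2, ENSDARG00000059824) had 1180 reads in morphants and 647 in controls (log2 ratio 0.76, interval 0.62 to 0.90), whereas soat1 (SOAT1, ENSDARG00000062297) had 262 and 451 (-0.89, interval -1.12 to -0.67). The ratio of soat2 to soat1 reads was 4.50 in morphants and 1.43 in controls, 3.14 times as high (interval 2.61 to 3.77). Leukocyte markers were lower in morphants as well, for 3 of 3 matched IDs (3 of 5 symbols). Among them lyz had 2 reads in morphants and 55 in controls, while CORO1A had 37 and 57 and was not past the read test. The part of these markers in the soat1 difference was not tested.

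Export genes past the read test went both ways. Of 5 IDs, 2 were higher and 2 lower, where the shares of all genes were 12.5% and 12.6%. The half-transporters abcg5 (ABCG5, ENSDARG00000063078) and abcg8 (ABCG8, ENSDARG00000063059), which form 1 pump that secretes sterol into bile, were both higher in morphants. The gene abcg5 had 343 reads in morphants and 173 in controls (log2 ratio 0.88, interval 0.61 to 1.15), and abcg8 had 332 and 160 (0.94, interval 0.67 to 1.23). Reads of abcg5 per read of abcg8 were 1.03 in morphants and 1.08 in controls, a ratio of 0.956 with an interval of 0.728 to 1.25, so that no difference between the partners was detectable at this depth.

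Of the 3 genes of efflux to plasma, 2 were lower past the read test, where the share of all genes was 12.6%. Neither was 2-fold lower with the main scaling. The transporter abca1a (ABCA1, ENSDARG00000074635), which loads cholesterol onto apolipoprotein A-I, had 3121 reads in morphants and 5710 in controls, a log2 ratio of -0.98 (interval -1.04 to -0.92), the lowest of all members. Its paralog abca1b (ENSDARG00000079009) had 19 reads in morphants and 23 in controls (-0.37, interval -1.34 to 0.56). The plasma enzyme lcat (LCAT, ENSDARG00000099424), which esterifies cholesterol on HDL, had 3093 reads in morphants and 4224 in controls (-0.56, interval -0.62 to -0.49). Reads of abcg5 per read of abca1a were 3.63 times as many in morphants as in controls (interval 2.996 to 4.40).

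**Figure D5:**
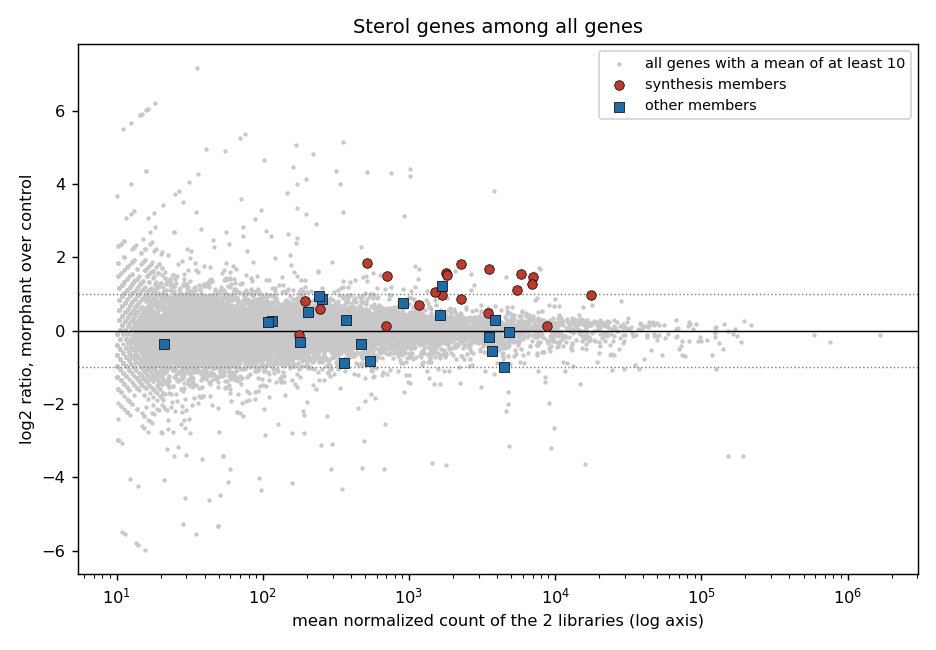
Log2 ratio of the morphant over the control library (y axis) against the mean normalized count (x axis, log scale) for 14241 genes (grey), with 21 synthesis members (red circles) and 19 other members (blue squares), dotted lines marking a fold of 2. Of the members, 12 lie above the upper dotted line and 0 below the lower one, and the highest stands at 1.84.

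How far the calls hold depends on how much pools of livers vary, which was not measured. With an assumed coefficient of variation of 0.2 between pools in edgeR's exact test, 8 members were past an adjusted p of 0.05, all of them synthesis genes and higher in morphants, where the shares of all genes were 0.718% higher and 0.680% lower. Among them were mvk, mvda, fdps, fdft1, sqlea, lss and ebp. With an assumed value of 0.4, none of the members was past it, against 24 higher and 19 lower genes in all.

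Other sterol genes were compared from a list of 46 symbols. Of 40 IDs with at least 10 reads, 9 were higher and 6 lower past the read test, where the shares of all genes were 12.5% and 12.6%, so that the lower count was near the background. The median log2 ratio was -0.05. TMEM97, a membrane protein that binds NPC1 in human cells, had 2363 reads in morphants and 900 in controls (1.28, interval 1.17 to 1.40). The apolipoprotein E gene apoeb had 887 reads in morphants and 276 in controls (1.58, interval 1.38 to 1.78). In the other direction stood LIPC (lipca), the hepatic lipase that acts on HDL and remnant particles, with 824 reads in morphants and 1880 in controls (-1.30, interval -1.42 to -1.18). CYP7A1, the rate-limiting enzyme of bile acid synthesis from cholesterol, was chosen after its values were seen and had 1389 reads in morphants and 698 in controls (0.88, interval 0.75 to 1.02).

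Branches of the isoprenoid pathway that do not lead to sterols differed less. Of 18 IDs, 3 were higher and 0 lower past the read test, none by 2-fold, and the median log2 ratio was 0.10. With 12.5% of all genes past that test and higher, the count of 3 was near the background. Those 3 were PDSS1 (563 reads in morphants and 382 in controls) and PDSS2 (318 and 230), which make the ubiquinone tail, and the prenyltransferase subunit FNTA (535 and 399). The dolichol enzymes DHDDS and NUS1, whose product carries sugars for N-glycosylation, were not past the read test. DHDDS had 443 reads in morphants and 393 in controls, a log2 ratio of 0.07 (interval -0.13 to 0.26), and NUS1 had 887 and 840 (-0.03, interval -0.17 to 0.11). These genes of the isoprenoid branches were singled out after their values were seen.

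The list of fatty acid and triglyceride genes, only some of which are known mainly as SREBP-1 targets in mammals, was mixed. Of 20 IDs, 7 were higher and 5 lower past the read test, where the shares of all genes were 12.5% and 12.6%, and the median log2 ratio was 0.20. Past a fold of 2 with a mean of at least 100 were ACLY (ENSDARG00000099079) at 2612 reads in morphants and 911 in controls (1.41, interval 1.30 to 1.52), ACACA at 590 and 219 (1.32, interval 1.096 to 1.55) and FASN at 462 and 198 (1.11, interval 0.87 to 1.36), which make fatty acids from citrate. The other acetyl-CoA carboxylase gene, ACACB, was lower, with 500 reads in morphants and 653 in controls (-0.49, interval -0.66 to -0.32). SCD, a desaturase of saturated acyl chains, had 143 reads in morphants and 3 in controls (5.26, interval 3.89 to 7.76), and its mean normalized count was under the 100 set for naming. Pancreatic and epidermal markers were also higher in morphants, and their part in the SCD difference was not tested. Genes of triglyceride synthesis on the list went both ways. GPAM was higher, with 197 reads in morphants and 107 in controls (0.77, interval 0.43 to 1.13). Lower were DGAT2 at 1823 reads in morphants and 2911 in controls (-0.78, interval -0.87 to -0.70), LPIN1 at 925 and 1557 (-0.86, interval -0.98 to -0.74) and the DGAT1 ID ENSDARG00000054914 at 520 and 721 (-0.58, interval -0.74 to -0.41). AGPAT2 (log2 ratio 0.21) and the other DGAT1 ID (ENSDARG00000103503, -0.95 with an interval of -2.13 to 0.10) were not past the read test. The other ACLY ID (ENSDARG00000055652) had a log2 ratio of 0.06. SCD, ACACB and the triglyceride genes were singled out after their values were seen.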

How the data were processed

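The authors deposited raw counts, whole numbers of reads per Ensembl gene ID, for 1 library of man1a2 morphants and 1 of controls. Per the labels, poly-A RNA was selected and libraries were strand-specific. The submitters' processing notes name GRCz10, FastQC and DESeq2. The aligner and counting program are not given in the sources used here. Symbols came from a name table that covered 26121 of 31953 IDs, often with the human symbol. Positions are not printed, because no genome of that build was used.

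Counts were scaled by size factors of DESeq2 1.42.0 in R 4.3.3. Ratios carried a pseudocount of 0.5, and intervals and exact binomial tests (2-sided, the smaller tail doubled, Benjamini-Hochberg over all genes with at least 10 reads) carried none and were computed with scipy 1.17.1. EdgeR 4.0.16 gave TMM and upper-quartile factors and exact tests at assumed variation, since its quasi-likelihood test cannot be fitted with 1 library per group. PCR copies are not independent molecules, so intervals are too narrow to that extent. In a library, 3 counts corresponded to 0.152 CPM in morphants and 0.153 CPM in controls. The tests were tried on simulated data, with counting error alone for the read test and a variation of 0.2 for edgeR's exact test. Variation between real pools was not known, so these trials do not show how the calls hold against it.

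Every member with an ID was to be named, and of the other lists those with a mean of at least 100 and a fold of at least 2. Some of these are not reported here one by one but are in the counts, medians and summed reads. The members and lists were chosen with earlier results of these data known.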

Additional observations from a re-analysis of the deposited data

How the results depend on the processing

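No paired analysis was possible because morphants and controls had a single library apiece. Under TMM, upper-quartile and total-count scaling, the synthesis median stayed between 1.02 and 1.15 and members 2-fold higher between 12 and 15. Total counts moved all log2 ratios up by about 0.0984, turned ldlra to 0.0674 and changed the read test over all genes to 3144 higher and 1398 lower, against 1974 and 1982. Upper-quartile factors put 1 member, abca1a, 2-fold lower, where the main scaling had 0, and took stard4 (0.26) out of the read test. The filter, pseudocount and thinning alternatives left 12 higher, but the share of all genes 2-fold higher was 12.5% with no filter and 1.27% with a mean of at least 100, against 3.30%. With a fold of 1.5, 20 members were higher and 3 lower, where the shares of all genes were 9.06% and 11.5%. With an assumed variation of 0.1, 20 were higher and 3 lower (all genes 2.83% and 3.54%), with 0.2, 8 and 0, and with 0.4, 0 and 0, against 26 and 5 with counting error alone. Depth limits abca1b, ldlrb, ggps1 and the MYLIP ID ENSDARG00000008859, whose intervals included 0.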
